A study of Mus musculus with 30 samples.

Results

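Tumours carrying 2 different substitutions of 1 residue of the epidermal growth factor receptor (EGFR) were compared across all genes: 5 A289I tumours and 4 A289V tumours, chosen by their variant label alone and making up 9 of the 30 libraries of the series. A289I and A289V replace alanine Ala289 of the receptor by isoleucine and by valine. All 9 were bulk cortical tumours of mice at postnatal day 70, labelled as glioblastoma, with 1 stranded library of polyadenylated RNA each. The R108G tumours (3 libraries) and the R108K tumours (4 libraries), which carry 2 substitutions of arginine Arg108, gave a second pair of variants of 1 residue. Tumours given mCherry, a fluorescent protein without the receptor (3 libraries), and normal cortex (2 libraries) are named where their levels help to place a value. The labels give neither the species of the introduced receptor, nor the promoter or delivery that put it in place, nor the strain of the mice, and what else the tumours share genetically is not given in the sources used here.

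EGFR is a receptor tyrosine kinase of the cell surface that dimerises when it binds ligands such as EGF, amphiregulin or betacellulin, and signals through Ras, ERK and PI3K to growth and division. Ala289 lies in the extracellular part of the receptor, where glioblastomas carry missense changes that favour its active shape. In the brain EGFR is known for driving glial precursors, including those of the oligodendrocyte lineage, and its gene is often amplified in glioblastoma.

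The site that sets both groups apart is shown in the mouse gene, since valine and isoleucine are reached from the same codon. The Ala289 codon of Egfr lies in exon 7 of 28 of the transcript Egfr-201 in GENCODE release M21 (mm10, chromosome 11, 16869336 to 16869338, + strand) and codes for alanine in the mouse as well. The 45 bases around it (chr11:16869315-16869359, + strand), with the Ala289 codon in capitals, are these.
Egfr, Ala289 codon and its surroundings: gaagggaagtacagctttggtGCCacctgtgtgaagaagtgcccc
From this codon the nearest valine codon is 1 base change away and the nearest isoleucine codon 2 base changes away. The tables hold levels per gene and no reads of the variant bases, so the substitutions themselves could not be read in the tumours.

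The A289I libraries held 4415848 to 24475215 reads and the A289V libraries 5605877 to 16275235 reads. Levels are given as RPM, here the authors' size-factor-normalised read counts divided by 1 constant for all libraries. The library numbers in the titles separate the groups. All A289I libraries carry numbers above 37, A289V library 1 a number below 20, and A289V libraries 2 to 4 numbers from 20 to 37, so what goes with these ranges cannot be told apart from the variant within this pair. Some fits below carry the ranges as a term. Only the mCherry group has libraries on both sides of 37, with 1 above 37 (library 3) and 2 below 20. In those fits the adjustment of A289I minus A289V for numbers above 37 therefore depends on that 1 mCherry library. Rn45s, the ribosomal RNA precursor, took 0.117% to 1.32% of the reads in the A289I libraries, against 0.291% in A289V library 1 and 3.01% to 3.36% in A289V libraries 2 to 4. Xist was under 1 RPM in 2 of 5 A289I libraries and in 0 of 4 A289V libraries, so the groups also differ in the sex of the mice.

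A289V libraries 1 and 3 stand apart as a pair. In these 2 libraries 11 genes were at 5 RPM or more and at least 3 times as high as in every one of the other 28 libraries. Gtf2a1l, a germ-cell form of a general transcription factor subunit, was at 97.5 RPM in A289V library 1 and 202 RPM in A289V library 3, against at most 0.59 RPM elsewhere. Vit, which codes for the matrix protein vitrin, was at 195.5 RPM and 388 RPM in them, against at most 40.7 RPM elsewhere. Smad6, an inhibitor of BMP signalling, was at 33.1 RPM and 63.4 RPM, against at most 5.23 RPM elsewhere. The ratio of library 1 to library 3 over the 11 genes had a median of 0.51 and ranged from 0.302 to 0.765, and the same ratio for Egfr was 0.433. No other of the 377 pairs of tumour libraries shared more than 7 such genes, 376 of them shared 2 or fewer, and a pair that holds an A289I library shared at most 1. Whether both A289V libraries come from 1 tumour was not tested; they were counted as 2, and results are also given with their average as 1 library.

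**Figure D1:**
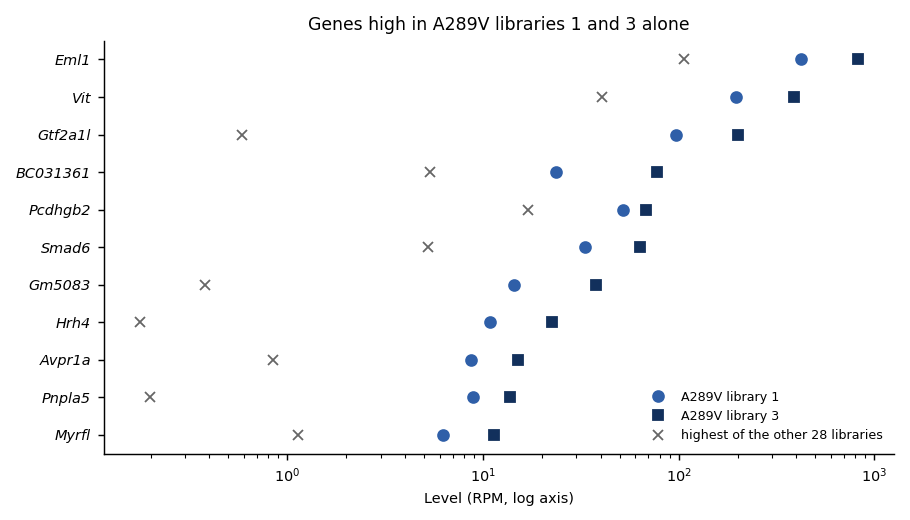
Levels of the 11 genes that were high in A289V libraries 1 and 3 alone. Circles show library 1, squares library 3 and crosses the highest of the other 28 libraries, on a log axis; for every gene the circle and the square lie at least 3 times above the cross.

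Egfr, the only receptor gene the labels name (chromosome 11, 16752203 to 16918158), was at 586, 464, 646, 388 and 703 RPM in A289I tumours, against 254, 103, 587 and 138 RPM in A289V tumours. The lowest A289I library lay above A289V libraries 1, 2 and 4, and A289V library 3 lay inside the A289I range. The means were 557 ± 129.6 RPM in A289I tumours (SD, n = 5) and 270.4 ± 221 RPM in A289V tumours (SD, n = 4), against 29.4 RPM in mCherry tumours and 12.02 RPM in normal cortex. The log2 difference was 1.34 ± 0.90 (SE; 95% interval -0.51 to 3.19; adjusted p = 0.446 in limma). An exact permutation test of the mean log2(RPM + 1) over the 9 libraries gave p = 0.0635 (two-sided; the smallest p that 126 arrangements allow is 0.0159). Without A289V library 3 the difference was 1.82, and without A289V library 2 it was 0.99. The mouse gene counts both the animals' own transcript and any introduced receptor of mouse sequence.

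Over all genes, 0 of the 15824 tested passed an adjusted p of 0.05 between A289I and A289V tumours (0%; limma on log2(RPM + 1)); the smallest adjusted p was 0.0755. An unadjusted p under 0.05 was found for 897 genes that were higher in A289I tumours (5.67%) and 1975 that were lower (12.5%). All 5 A289I libraries lay above all 4 A289V libraries for 515 genes (3.25%) and below them for 437 genes (2.76%). The median difference of all genes was 0.0048 on the log2 scale. Other settings called more: 3241 genes with library weights, 196 with DESeq2, 534 without A289I library 4, 172 without A289V library 4, 14 without A289V library 3 and 1 without A289V library 2, while edgeR called 0, with 2797 at an unadjusted p under 0.05. With A289V libraries 1 and 3 averaged as 1 library, 0 genes passed. Differences of single genes between A289I and A289V are therefore given as measured values, none of which passed the adjusted threshold.

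The 8 genes of smallest p among those higher in A289I tumours, each with a mean of at least 5 RPM there, had adjusted p-values in limma of 0.0755 to 0.107, and for each of them all A289I libraries lay above all A289V libraries. Ermard, which codes for a membrane protein of the endoplasmic reticulum (chromosome 17, 15041208 to 15090044), was at 39, 60.8, 63.5, 64.1 and 132 RPM in A289I tumours and 25.1, 16.7, 28.9 and 33.3 RPM in A289V tumours; the log2 difference was 1.36 ± 0.28. A289I library 5 was the highest, and the other 4 A289I libraries lay between 39 and 64.1 RPM. Cdr2l, a paralogue of the cerebellar degeneration antigen Cdr2, was at 79.1, 56.8, 104, 92.4 and 62.9 RPM in A289I tumours and 24.9, 30.1, 41.5 and 28.3 RPM in A289V tumours; the log2 difference was 1.30 ± 0.28. Cc2d1b, whose protein binds membranes in the ESCRT pathway, was at 55.6, 49.7, 77.4, 50.8 and 59 RPM in A289I tumours and 25.8, 33.2, 30.9 and 34.8 RPM in A289V tumours (0.88 ± 0.19). In both of these genes a gap separated the groups, from 41.5 to 56.8 RPM for Cdr2l and from 34.8 to 49.7 RPM for Cc2d1b. For Cdr2l that gap was smaller than the SD of the A289I libraries (19.8 RPM). Sox2ot, a long non-coding RNA whose gene spans Sox2 (chromosome 3, 34104270 to 34682619), was at 93.8, 81.8, 67.8, 91.2 and 76.2 RPM in A289I tumours and 19, 26.3, 48.4 and 45.9 RPM in A289V tumours (1.30 ± 0.31). Mtap, the methionine salvage enzyme whose gene neighbours Cdkn2a (chromosome 4, 89137122 to 89181081), was at 142, 58.3, 80.3, 51.4 and 93.9 RPM in A289I tumours and 27, 35, 39 and 47.7 RPM in A289V tumours (1.11 ± 0.27). A289I library 4 exceeded A289V library 4 for Mtap by less than the spread within either group. B3gnt9, a glycosyltransferase gene, had log2 1.85 ± 0.46, with 14.8 to 20.5 RPM in A289I tumours and 2.56 to 7.49 RPM in A289V tumours. The last 2 of the 8 were Zadh2 (0.88 ± 0.21), an oxidoreductase gene, and Scand1 (1.01 ± 0.25), a gene of the SCAN domain family.

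The 8 genes of smallest p among those lower in A289I tumours, all averaging 5 RPM or more in A289V tumours, had adjusted p-values in limma of 0.0755 to 0.0935. Cdr1 (chromosome X, 61184005 to 61185558), whose locus also gives a circular RNA from the other strand, had the largest difference of the 8. It was at 1.66, 1.94, 4.78, 2.55 and 1.69 RPM in A289I tumours and 10.1, 197, 64.6 and 81.3 RPM in A289V tumours, and the log2 difference was -4.13 ± 0.83. A289V library 1 was far below the other 3 A289V libraries. Cdr1 also went with the library numbers outside this pair: it was at 14.1 to 16 RPM in the R108K tumours of the range 20 to 37 and at 1.24 to 1.92 RPM in those below 20, and with 3 number ranges as a term in the fit the difference was -1.10. Whether the counting used strand is not given in the sources used here, so Cdr1 and its antisense partner cannot be told apart. Calm2, 1 of the calmodulin genes (chromosome 17, 87433412 to 87446935), was at 334, 486, 442, 599 and 411 RPM in A289I tumours and 1099, 1334, 608 and 719.8 RPM in A289V tumours (-1.0 ± 0.20). Elk1, a transcription factor that ERK phosphorylates, was at 28.5, 34.6, 29.8, 45.1 and 35.1 RPM in A289I tumours and 83.2, 94.6, 51.1 and 56.4 RPM in A289V tumours (-0.99 ± 0.21). For both genes A289V libraries 1 and 2 were the highest and A289V library 3 lay just above the highest A289I library. Tenm2, a synaptic adhesion gene, was at 3.86, 9.25, 6.60, 16.8 and 4.08 RPM in A289I tumours and 34.1, 54.6, 20.5 and 24.9 RPM in A289V tumours (-2.0 ± 0.43). Grin2b, an NMDA receptor subunit, was at 0.536, 4.99, 1.14, 6.58 and 1.2 RPM in A289I tumours and 14.1, 39.1, 8.20 and 10.7 RPM in A289V tumours (-2.33 ± 0.51). Sstr4, a somatostatin receptor gene, had log2 -1.52 ± 0.33, and Gabra5, a GABA-A receptor subunit gene, had log2 -2.26 ± 0.50. Of these 8 genes, only Gabra5 had groups that overlapped, through A289I library 4. Ccdc153, a gene of ciliated cells, was at 0, 0.736, 0, 0.318 and 0.697 RPM in A289I tumours and 3.91, 1.18, 1.59 and 17.9 RPM in A289V tumours (-1.87 ± 0.40), so A289V library 4 carries most of its mean.

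**Figure D2:**
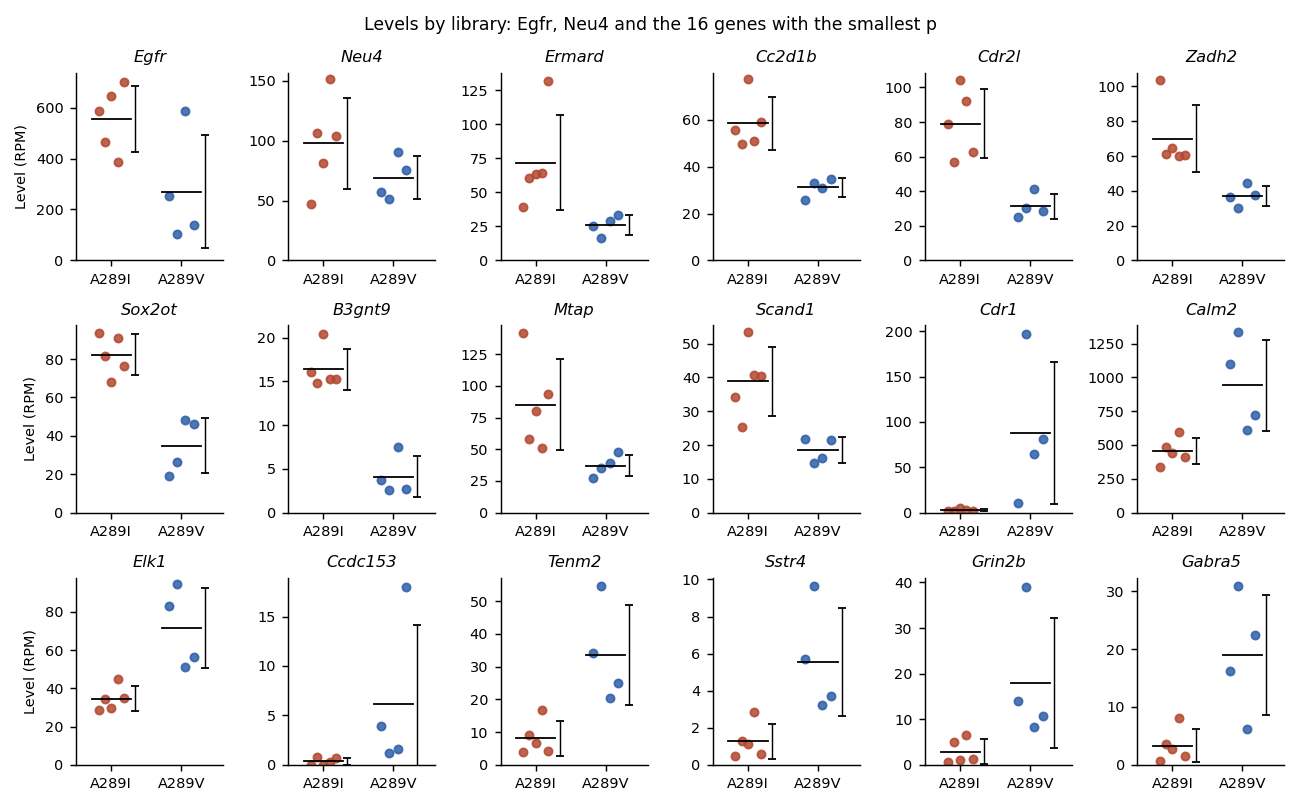
Levels in RPM of Egfr, Neu4 and the 16 genes of smallest p in each A289I library (red, left) and each A289V library (blue, right). Horizontal lines are group means and vertical bars 1 SD (n = 5 and 4; axes start at 0, which ends the lower bar for Ccdc153); the groups overlap for Egfr, Neu4 and Gabra5 and for none of the other 15 genes.

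Among the receptors and ligands of the EGF family, 17 of 19 members passed the filter on low values, with a median log2 difference of 0.27. At an unadjusted p under 0.05, 1 member was higher (5.67% of all genes) and 1 lower (12.5% of all genes), which does not set the list apart. The higher one was the ligand gene Areg (amphiregulin), at 3, 1.67, 8.42, 4.99 and 3.58 RPM in A289I tumours and 0.178, 0, 0.472 and 0.176 RPM in A289V tumours. Every A289I library was above every A289V library, and the log2 difference was 2.03 ± 0.60 (SE; adjusted p = 0.113 in limma). The 3 mCherry libraries were at 0.122, 17.7 and 1.99 RPM of Areg, from the A289V range to above every A289I library. Nrg3, a neuregulin gene of neurons, was the lower one, at 1.29, 9.18, 4.09, 17.5 and 4.48 RPM in A289I tumours and 24.9, 43.8, 15 and 11.8 RPM in A289V tumours (-1.75 ± 0.60; adjusted p = 0.135 in limma). A289I library 4 lay inside the A289V range for Nrg3. Hbegf was at 49.4, 43.7, 95.3, 61 and 61.1 RPM in A289I tumours and 42.9, 55.8, 48 and 24.6 RPM in A289V tumours (0.53 ± 0.33), with overlapping groups. Btc and Ereg, genes of 2 further ligands, had log2 differences of 0.77 ± 0.42 and 0.67 ± 0.44 at levels under 3 RPM in every one of the 9 libraries.

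Of the 20 genes that respond to ERK or feed back on it, 15 had a higher mean in A289I tumours and the median log2 difference was 0.52, but 0 were higher and 1 was lower at an unadjusted p under 0.05, and with the neuron list as a covariate the median was -0.14, so its direction turned. The cyclin D1 gene Ccnd1 was at 756, 788, 1187, 741 and 996 RPM in A289I tumours and 451, 317, 689.7 and 386 RPM in A289V tumours (0.99 ± 0.53; adjusted p = 0.323 in limma). All A289I libraries were above all A289V libraries. The mCherry libraries were at 274, 2590 and 264 RPM, 1 of them above and 2 of them below all 9 libraries of both groups. Phlda1, a gene that ERK induces, had log2 1.29 ± 0.68 with overlapping groups. Myc was at 660.4, 78.6, 125, 78.1 and 149 RPM in A289I tumours and 77.4, 51.3, 127 and 125 RPM in A289V tumours (0.74 ± 0.48), where A289I library 1 alone set the mean apart. Epha4, an ephrin receptor gene that neurons also express, was the lower one, at 16.9, 31.7, 14.6, 50.3 and 22 RPM in A289I tumours and 83.2, 155, 44.8 and 64.8 RPM in A289V tumours (-1.64 ± 0.48; adjusted p = 0.113 in limma). Of the 33 genes of Ras, MAPK and PI3K signalling 3 were higher and 4 lower at an unadjusted p under 0.05, with a median of 0.01; 5.67% of all genes were higher and 12.5% lower at that p, and the lower share of the list is close to it. Stat3, a transcription factor gene downstream of cytokine and growth factor receptors, was at 274 to 320.1 RPM in A289I tumours and 158 to 246 RPM in A289V tumours (0.63 ± 0.27). The A289I libraries were close together and all above the A289V libraries.

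The largest list medians were those of neuronal genes, which were lower in A289I tumours. Of the 25 markers of neurons in general, 25 had a lower mean in A289I tumours and 22 had an unadjusted p under 0.05 (against 12.5% of all genes), with a median log2 difference of -1.45. The corresponding numbers were 12 of 15 for markers of excitatory neurons and cortical layers (median -1.63), 9 of 17 for inhibitory neurons (-1.42), 19 of 24 for synaptic vesicle and release genes (-1.45), 10 of 14 for GABA receptors (-1.64), 12 of 22 for glutamate receptors (-0.97) and 12 of 21 for potassium channels (-1.23). No member of these lists was higher at an unadjusted p under 0.05. The mean log2(RPM + 1) of the neuron list was 5.50, 7.34, 6.51, 7.84 and 6.47 in A289I libraries 1 to 5, against 8.65, 9.07, 7.41 and 7.59 in A289V libraries 1 to 4. It was 5.99 to 7.53 in mCherry tumours and 9.48 to 9.49 in normal cortex. A289V libraries 1 and 2 came nearest to cortex, A289I library 1 was the farthest from it, and A289I library 4 lay above A289V libraries 3 and 4. In bulk tissue fewer neurons and less RNA per neuron cannot be told apart, and how much cortex was dissected with each tumour is not given in the sources used here. Without A289V libraries 1 and 2 the median of the neuron list was -0.79.

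In the single neuronal genes given here by library, A289V libraries 1 and 2 lay above every other A289V and A289I library. A289I library 4 was the highest A289I library for each of them. Without overlap, 1 of 25 neuron markers, 3 of 15 excitatory and 3 of 17 inhibitory markers were lower in A289I tumours (2.76% of all genes). Nefl, the light neurofilament chain, was at 6.92, 39.5, 15.5, 53.6 and 16.5 RPM in A289I tumours and 111, 217, 29.1 and 80.5 RPM in A289V tumours (-2.01 ± 0.62; adjusted p = 0.119 in limma). Neurod2, a transcription factor of cortical excitatory neurons, was at 3.06, 11.4, 10.5, 29.8 and 5.58 RPM in A289I tumours and 59.9, 109, 31.9 and 41 RPM in A289V tumours (-2.42 ± 0.67), and the groups did not overlap. Nos1, the neuronal nitric oxide synthase of a class of interneurons, was at 5.84, 16.1, 4.09, 24.8 and 6.27 RPM in A289I tumours and 41.3, 64.1, 35.4 and 29.2 RPM in A289V tumours (-2.03 ± 0.59) without overlap. Pvalb, the calcium buffer of fast-spiking interneurons, was at 1.93, 11.5, 6.14, 12.2 and 3.38 RPM in A289I tumours and 52.8, 34.8, 12.6 and 16.9 RPM in A289V tumours (-1.93 ± 0.66), again without overlap, though A289I library 4 and A289V library 3 differed by less than the spread within either group. Pclo, a scaffold gene of the presynaptic active zone, was at 14.6, 49, 27.3, 66 and 24.2 RPM in A289I tumours and 112, 169, 72.2 and 64.3 RPM in A289V tumours (-1.58 ± 0.38). For Pclo the overlap was through A289I library 4, the A289I library with the highest neuron list. Gabra3, a GABA-A receptor subunit gene, had log2 -1.65 ± 0.45, Grin2a, an NMDA receptor subunit gene, had -1.97 ± 0.52 and Gria3, an AMPA receptor subunit gene, had -1.02 ± 0.30. The potassium channel gene Kcnj3 had a log2 difference of -1.37 ± 0.48.

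**Figure D3:**
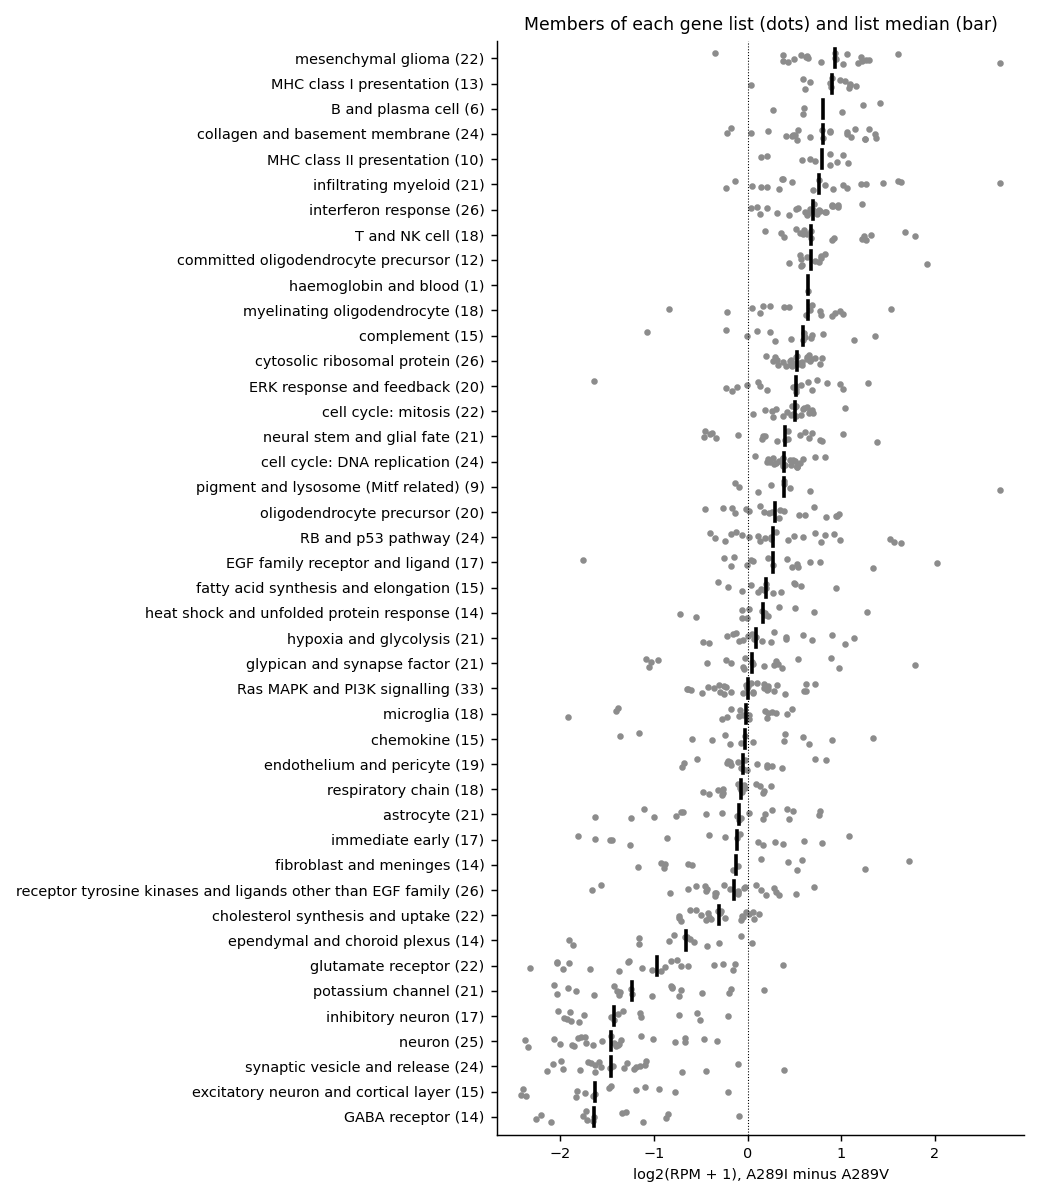
Log2 difference of every tested member (dots) of 43 gene lists between A289I and A289V tumours, with the list median as a bar and the number of members in brackets; positive values are higher in A289I tumours. The lists of neuronal genes lie lowest, with medians down to -1.64, and the mesenchymal list lies highest at 0.93.

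When the neuron list mean entered the fit as a covariate, 0 genes passed and 328 had an unadjusted p under 0.05, against 2872 without it. The list medians then were -0.34 for excitatory neurons, -0.08 for GABA receptors, -0.19 for vesicle genes, -0.04 for potassium channels and 0.07 for inhibitory neurons, whose direction turned. Under the same covariate the mesenchymal list had a median of 0.45 and the committed precursor list 0.51.

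Genes of mesenchymal glioma, a class marked by invasion, wound and cytoskeletal genes, were mostly higher in A289I tumours. Of 23 members 22 were tested, 21 had a higher mean in A289I tumours, 6 had an unadjusted p under 0.05 (5.67% of all genes) and 10 did not overlap between the groups (3.25% of all genes); the median log2 difference was 0.93. The mean log2(RPM + 1) over the list was 5.39 to 5.89 in A289I libraries and 4.54 to 5.03 in A289V libraries, so the library means did not overlap either, and it was 4.79 to 6.99 in mCherry tumours. Tnc, the matrix glycoprotein tenascin C, was at 249.5, 456, 343, 348 and 445 RPM in A289I tumours and 40, 47.6, 52.9 and 89 RPM in A289V tumours, and the log2 difference was 2.69 ± 0.95 (SE; adjusted p = 0.14 in limma). The lowest A289I library was far above the highest A289V library. The mCherry libraries were at 70.4, 1907 and 222.2 RPM, the first inside the A289V range, the second above every A289I library and the third between the groups. Fitted on the 2 groups alone, Tnc was the only gene that passed, with an adjusted p of 0.00881 in limma. Vim, the intermediate filament vimentin, was at 1635, 1072, 1268, 1311 and 1266 RPM in A289I tumours and 669, 472, 688 and 496 RPM in A289V tumours (1.18 ± 0.37). S100a10, a partner of annexin A2, was at 59.9, 44.7, 138, 56.5 and 94.7 RPM in A289I tumours and 38.8, 33.2, 26.9 and 22.1 RPM in A289V tumours (1.26 ± 0.33). S100a11, of the same calcium-binding family, was at 34.2, 30.5, 48.5, 28.1 and 42 RPM in A289I tumours and 14.1, 18.5, 22.1 and 18.8 RPM in A289V tumours (0.95 ± 0.30). None of these 4 genes overlapped between the groups. Cd44, the hyaluronan receptor, was at 109.9, 107, 122, 76.7 and 119 RPM in A289I tumours and 53.5, 62.3, 60.4 and 34.8 RPM in A289V tumours (1.02 ± 0.59), also without overlap. Without A289V libraries 1 and 2 the list median was 0.77. With 2 number ranges as a term it was 0.92, and with 3 number ranges as a term it was 0.05.

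Collagen and basement membrane genes had a median log2 difference of 0.80, with 6 of 24 higher (5.67% of all genes) and 0 lower at an unadjusted p under 0.05. Col16a1, a fibril-associated collagen gene, was at 213, 196, 602, 220.2 and 354 RPM in A289I tumours and 109.8, 89.2, 165 and 95 RPM in A289V tumours (1.36 ± 0.37; adjusted p = 0.113 in limma), without overlap. Col4a5, a basement membrane collagen gene, was at 34.8, 24.5, 46.2, 22.6 and 45.7 RPM in A289I tumours and 8.54, 10.8, 11.8 and 20.2 RPM in A289V tumours (1.38 ± 0.57), also without overlap. Hspg2, the gene of the proteoglycan perlecan, had log2 1.30 ± 0.58 and the laminin gene Lamc1 had 0.80 ± 0.37. A289I libraries 3 and 5 were the highest of the 9 libraries for these 4 genes. Markers of endothelium and pericytes, cells that make such a matrix, had a median of -0.05 with 0 of 19 at an unadjusted p under 0.05. The mean of that marker list was 3.99 to 4.27 in A289I libraries and 3.88 to 4.39 in A289V libraries.

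Genes of the oligodendrocyte lineage were mostly higher in A289I tumours. By list means A289V library 3 lay inside the A289I range for committed precursors, myelin genes and precursors. A289V library 2 also lay inside it for myelin genes, and A289V library 4 for precursors. The median log2 difference was 0.67 over 12 genes of committed precursors (4 higher, 0 lower at an unadjusted p under 0.05), 0.64 over 18 myelin genes (2 and 0) and 0.30 over 20 genes of precursors (3 and 0). Of all genes, 5.67% were higher and 12.5% lower at that p. Myrf, the transcription factor that starts myelination, was at 365, 251, 270.1, 280.2 and 216 RPM in A289I tumours and 62.8, 110.3, 207 and 52.2 RPM in A289V tumours (1.54 ± 0.55; adjusted p = 0.147 in limma), and its groups did not overlap. Tns3, a focal adhesion gene of newly formed oligodendrocytes, was at 457, 417, 481, 410.4 and 479 RPM in A289I tumours and 197, 190.3, 500.1 and 211 RPM in A289V tumours (0.83 ± 0.26). Enpp6, which marks the same cells, was at 112, 89.5, 47.1, 132 and 68 RPM in A289I tumours and 10.3, 26.5, 56 and 13.7 RPM in A289V tumours (1.92 ± 0.90). For Tns3 and Enpp6 A289V library 3 reached the A289I range and the other 3 A289V libraries stayed below it. Cnp, a gene of myelin, was at 1486, 1335, 1111, 1851 and 887 RPM in A289I tumours and 453, 558, 1307 and 636 RPM in A289V tumours (0.93 ± 0.44), with the same layout. Neu4, a sialidase gene active in the oligodendrocyte lineage, was at 47.3, 106, 81.5, 151 and 104 RPM in A289I tumours and 57.5, 51.5, 90.8 and 75.9 RPM in A289V tumours (0.44 ± 0.40; adjusted p = 0.591 in limma), and its groups overlapped. Olig1 and Olig2, which specify the lineage, had log2 differences of 0.95 ± 0.34 and 0.96 ± 0.40, Bcan, a proteoglycan gene of precursors, had 0.98 ± 0.39 and Cspg4 had 0.83 ± 0.45. Without A289V libraries 1 and 2 the median was 0.23 for committed precursors, 0.58 for myelin genes and -0.06 for precursors, and with the 3 number ranges as a term it was 1.17, 0.11 and 0.62. Ermn, a late myelin gene, ran the other way at -0.84 ± 0.62, with its highest levels in A289V library 2 and A289I library 4.

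Among genes of neural stem cells and glial fate 3 of 21 were higher (5.67% of all genes) and 0 lower at an unadjusted p under 0.05, with a median of 0.40. Without A289V libraries 1 and 2 that median was -0.11, so its direction turned. Nes, the intermediate filament nestin, was at 328, 123, 277, 136 and 151 RPM in A289I tumours and 60.3, 55.6, 106 and 72.5 RPM in A289V tumours (1.38 ± 0.45; adjusted p = 0.126 in limma), without overlap. Sox2, a stem cell transcription factor whose gene lies inside Sox2ot, was at 271, 138, 199.5, 151 and 265 RPM in A289I tumours and 94.3, 63.9, 141 and 189.8 RPM in A289V tumours (0.80 ± 0.26), with A289V libraries 3 and 4 inside the A289I range. The 21 astrocyte genes split, with a median of -0.09, 0 higher and 3 lower at an unadjusted p under 0.05, a share close to the 12.5% of all genes. The lower ones were Slc1a2, the main glutamate transporter of astrocytes (-1.25 ± 0.60), the connexin gene Gjb6 (-1.62 ± 0.58) and Slc7a10 (-1.10 ± 0.45). Slc1a2 was at 227, 656, 213, 648 and 221 RPM in A289I tumours and 971, 1922, 440.5 and 522 RPM in A289V tumours, so A289V libraries 1 and 2 were again the highest and the groups overlapped. Ependymal and choroid plexus genes had a median of -0.66 with 5 of 14 lower (12.5% of all genes). That median was -0.30 without A289V libraries 1 and 2, -0.10 with the 3 number ranges as a term and 0.06 with the neuron list as a covariate, so its direction turned under the last. Tmem212, of motile cilia, was at 0.0536, 0.852, 0.228, 0.531 and 0.796 RPM in A289I tumours and 5.87, 1.57, 1.12 and 2.02 RPM in A289V tumours (-1.16 ± 0.30).

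Genes of the interferon response and of antigen presentation were higher on average in A289I tumours. For the MHC class I and class II lists the mean of A289V library 4 lay above or inside the A289I range and the other A289V libraries lay below it. For the interferon response list every A289V library lay inside the A289I range, at 5.34 to 6.80 against 5.33 to 7.19. Chemokine genes were not mostly higher, with 7 of 15 higher and 8 lower on average and a median of -0.03. All 26 interferon response genes had a higher mean in A289I tumours (median 0.70), yet 0 had an unadjusted p under 0.05. For MHC class I presentation the median was 0.90 with 3 of 13 tested members higher at that p (of 15 listed; 5.67% of all genes), and for MHC class II it was 0.80 with 0 of 10. H2-K1, a class I heavy chain gene, was at 2038, 3144, 3057, 1866 and 3019 RPM in A289I tumours and 670.1, 857, 1256 and 2941 RPM in A289V tumours (1.09 ± 0.44; adjusted p = 0.188 in limma). A289V library 4 was level with the A289I libraries and the other 3 A289V libraries were below them. Reads of H2 genes can be shared among near-identical copies, so their single values are uncertain. Psmb8, an immunoproteasome subunit gene, was at 499.8, 488, 429, 395 and 426 RPM in A289I tumours and 110.1, 133, 229 and 642 RPM in A289V tumours (1.05 ± 0.48), with A289V library 4 the highest of all 9. Without A289V libraries 1 and 2 the medians were 0.16 for interferon response, 0.21 for class I and 0.05 for class II. With the 3 number ranges as a term they were -0.62, -0.13 and -1.10, so the direction of all these list medians turned. The adjustment for numbers above 37 in that fit depends on 1 mCherry library.

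Infiltrating myeloid cells had 3 of 21 genes higher at an unadjusted p under 0.05 (5.67% of all genes) and a median of 0.76, and the list mean of every A289V library but library 3 lay below all A289I libraries. Gpnmb, a glycoprotein gene of lipid-laden macrophages and pigment cells, was at 499, 671, 2067, 328 and 791 RPM in A289I tumours and 33.8, 61.5, 137 and 472 RPM in A289V tumours (2.70 ± 0.92; adjusted p = 0.133 in limma). A289V library 4 lay between A289I library 4 and A289I library 1, and A289I library 3 was the highest. Clec7a, the lectin gene for Dectin-1, was at 40.1, 28.9, 13.4, 19 and 16.3 RPM in A289I tumours and 4.45, 3.73, 9.79 and 16.4 RPM in A289V tumours (1.45 ± 0.44). With the 3-range term the myeloid median was -0.82, and with the neuron list as a covariate it was 0.08. Resident microglia had a median of -0.02 and 3 of 18 genes lower, close to the share of all genes (12.5%), among them Siglech at 0.697, 2.21, 3.19, 20.3 and 5.08 RPM in A289I tumours and 19.2, 13.8, 11.3 and 32.5 RPM in A289V tumours (-1.92 ± 0.61). T and NK cell genes had a median of 0.68 with 5 of 18 tested members (of 21 listed) higher at an unadjusted p under 0.05, against 5.67% of all genes. Their median was 0.61 without A289V libraries 1 and 2 and 0.25 with the 3-range term. Nkg7, a gene of cytotoxic granules, was at 3.65, 17.1, 2.96, 2.65 and 4.58 RPM in A289I tumours and 0.534, 0, 1.24 and 2.20 RPM in A289V tumours (1.68 ± 0.66), and A289I library 2 was the highest for it and for the T cell kinase gene Lck (1.31 ± 0.52).

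All 22 mitosis genes and all 24 DNA replication genes had a higher mean in A289I tumours, with medians of 0.51 and 0.39, and 3 and 2 of them had an unadjusted p under 0.05, against 5.67% of all genes. Cdc20, an activator of the anaphase-promoting complex, was at 141, 46.4, 63.9, 25.6 and 57.1 RPM in A289I tumours and 18.5, 21.8, 32.9 and 41.4 RPM in A289V tumours (1.05 ± 0.40; adjusted p = 0.169 in limma). A289I library 1 was the highest, and A289I library 4 was below A289V libraries 3 and 4. Without A289V libraries 1 and 2 the medians were 0.05 and 0.03, and with 2 number ranges as a term they were -0.04 and 0.01. With 3 number ranges as a term they were 0.05 for mitosis and 0.35 for DNA replication. In the RB and p53 pathway 6 of 24 genes were higher (5.67% of all genes) and 0 lower (12.5%) at an unadjusted p under 0.05. Without overlap between the groups 6 were higher (3.25% of all genes) and 1 lower (2.76%), and the median was 0.28. Cdkn2a, the tumour suppressor gene for p16 and p19Arf (chromosome 4, 89274471 to 89294653), was at 209.6, 103, 245, 84.6 and 128 RPM in A289I tumours and 45, 19.3, 59.7 and 76.2 RPM in A289V tumours (1.64 ± 0.54; adjusted p = 0.126 in limma). The groups did not overlap. The mCherry libraries were at 90.5, 767 and 122 RPM, 1 of them above and 2 of them inside the A289I range. Sesn2 was at 54.1, 30.7, 36, 33.2 and 44.5 RPM in A289I tumours and 18.5, 15.9, 19.8 and 27.6 RPM in A289V tumours (0.92 ± 0.36). Bbc3 had 0.83 ± 0.30. Both are p53 targets, and Trp53 itself had 0.59 ± 0.27. Other p53 targets of the list went both ways. Phlda3 had 0.72, Bax 0.50, Trp53inp1 0.30, Mdm2 0.25 and Cdkn1a 0.12, whereas Pmaip1 had -0.06, Zmat3 -0.13, Ccng1 -0.18 and Eda2r -0.40. The mean over the list was 5.33 to 5.52 in A289I libraries and 4.79 to 5.12 in A289V libraries, without overlap.

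Cytosolic ribosomal protein genes had the largest share at an unadjusted p under 0.05 among the lists that were higher, 15 of 26 (5.67% of all genes). Their median was 0.53, and 0.25 with the neuron list as a covariate. The mean log2(RPM + 1) over the list was 8.66 to 9.82 in A289I libraries and 8.33 to 8.72 in A289V libraries, so the library means overlapped. Genes of this family have many processed copies, so values of single members are uncertain. Cholesterol synthesis and uptake genes had a median of -0.31 with 5 of 22 lower (12.5% of all genes), and a median of -0.09 without A289V libraries 1 and 2. Hmgcs1, the gene of HMG-CoA synthase, was at 225, 179, 119, 227 and 212 RPM in A289I tumours and 262, 515, 231 and 284 RPM in A289V tumours (-0.71 ± 0.27), without overlap. With the 3 number ranges as a term Hmgcs1 had 0.13. Elovl1, which elongates saturated fatty acids, was at 74.3, 71.3, 88.7, 68 and 80 RPM in A289I tumours and 30.2, 40.5, 46.8 and 40.4 RPM in A289V tumours (0.95 ± 0.27), without overlap. Immediate early genes had a median of -0.12, with 7 of 17 higher and 10 lower on average. At an unadjusted p under 0.05, 2 were higher (5.67% of all genes) and 1 lower (12.5%). With the 3 number ranges as a term the median was 0.27, so its direction turned. Ier2 and Jun had log2 1.08 ± 0.35 and 0.79 ± 0.30 without overlap. Egr3, which neuronal activity induces, had -1.47 ± 0.61, and its direction turned with number ranges as a term.

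**Figure D4:**
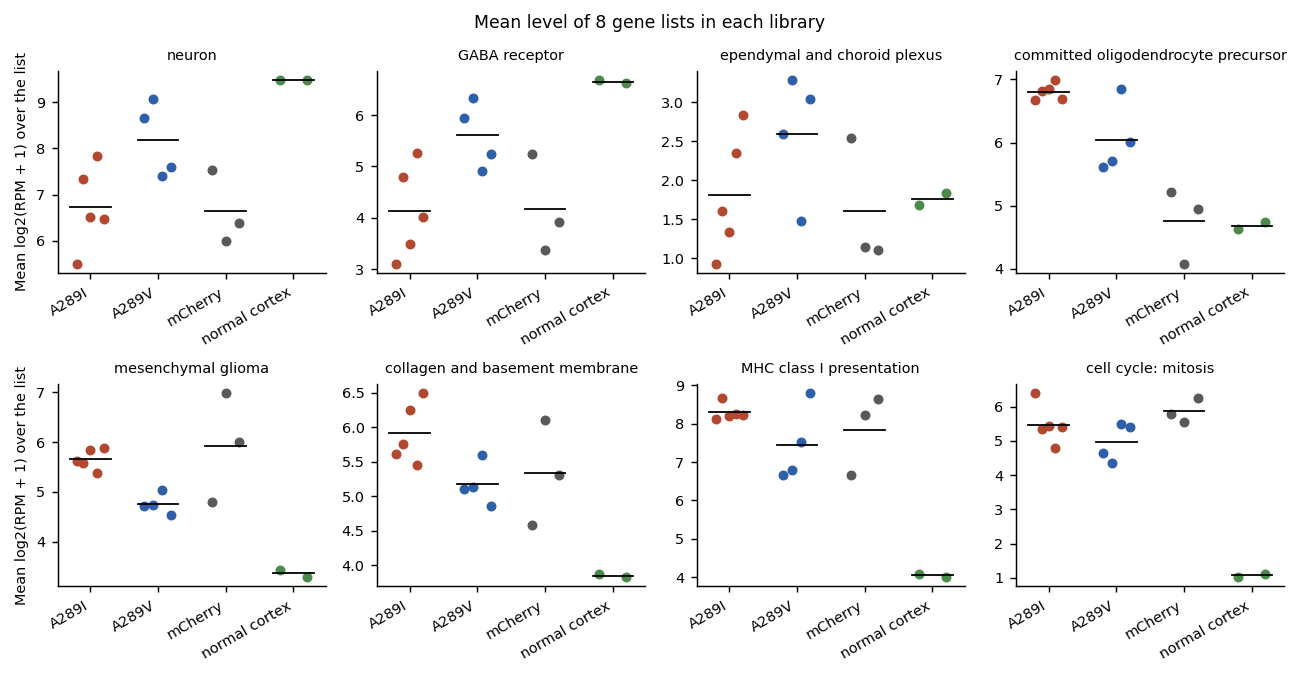
Mean log2(RPM + 1) of 8 gene lists in each library of the A289I, A289V, mCherry and normal cortex groups, with group means as lines. The A289I and A289V libraries overlap for the neuron list and do not overlap for the mesenchymal list, at 5.39 to 5.89 against 4.54 to 5.03.

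The R108G and R108K tumours give the same kind of contrast at another residue. This pair is split at library number 37 in the same way, with R108G above 37 and R108K in both lower ranges. It shares no library with the A289I and A289V pair. The lower ranges are mixed differently: R108K has 2 libraries below 20 and 2 from 20 to 37, and A289V has 1 and 3. Between R108G and R108K 0 of 15824 genes passed (0%; limma; 1569 at an unadjusted p under 0.05). The difference of both differences (A289I minus A289V less R108G minus R108K) passed an adjusted p of 0.05 for 5 genes (0.0316%), all with a negative value, and 3077 genes had an unadjusted p under 0.05.

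Atp2b4, a plasma membrane calcium pump gene, was at 35.6, 70.2, 72.1, 100.6 and 50.2 RPM in A289I and 195, 232, 111 and 68.8 RPM in A289V tumours, and at 54.2, 71.5 and 121 RPM in R108G and 13.8, 14.8, 15.3 and 34.9 RPM in R108K tumours. Levels were lower in A289I than in most A289V tumours and higher in R108G than in every R108K tumour, and the difference of differences was -3.16 ± 0.53 (SE; adjusted p = 0.0358 in limma). Ak5, an adenylate kinase gene of the brain, was at 23.5, 58.7, 36.9, 78.4 and 32.5 RPM in A289I and 179.7, 214, 81.8 and 62.7 RPM in A289V tumours, and at 30.4, 55 and 49.7 RPM in R108G and 12.3, 14.9, 7.17 and 11.3 RPM in R108K tumours, with -3.36 ± 0.58 (SE; adjusted p = 0.0358 in limma). All 3 R108G libraries were above all 4 R108K libraries. 5830417I10Rik, a gene without an assigned function here, was at 95.6, 119, 80.8, 69.1 and 58.2 RPM in A289I and 114, 109, 135 and 125 RPM in A289V tumours, and at 149.6, 122 and 172 RPM in R108G and 55.6, 53.6, 69.4 and 91.7 RPM in R108K tumours, with -1.69 ± 0.30 (SE; adjusted p = 0.0383 in limma). Rxfp3, a relaxin family receptor gene of neurons, had -2.64 ± 0.49 (SE; adjusted p = 0.0454 in limma) and Ccdc108 had -2.41 ± 0.45 (SE; adjusted p = 0.0454 in limma), both under 6 RPM in all 4 groups. All 5 are named because so few passed, the last 3 after their values were seen. The 5 calls depend on single libraries: 0 genes passed without A289I library 1, 3 or 5, A289V library 1 or 2, R108G library 3 or R108K library 1 or 3. The count was 848 without A289I library 4, 664 without R108G library 1, 467 without A289V library 4, 292 without A289V library 3, 38 without R108K library 4, 8 without A289I library 2 and 2 without R108K library 2.

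The list medians of the pairs had opposite signs for neuronal genes, which were lower in A289I than in A289V tumours and higher in R108G than in R108K tumours. They were -1.45 at Ala289 and 1.02 at Arg108 for the neuron list, -1.45 and 0.89 for vesicle genes, and -1.23 and 0.84 for potassium channels. Signs were also opposite for infiltrating myeloid genes (0.76 and -0.56) and ribosomal protein genes (0.53 and -0.43). Collagen and basement membrane genes had 0.80 and 0.75, higher in A289I and in R108G, the variants whose library numbers are above 37. The mesenchymal list had 0.93 at Ala289 and 0.01 at Arg108. These medians are descriptions of the lists, and no test was made of them.

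**Figure D5:**
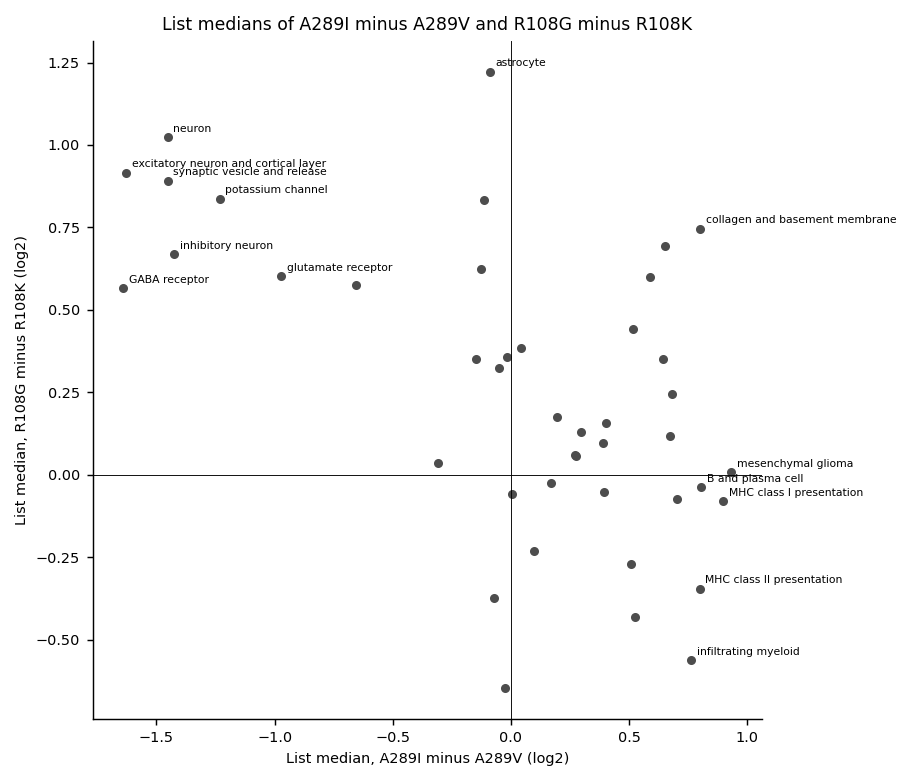
Median log2 difference of each of 43 gene lists for A289I minus A289V (horizontal axis) and for R108G minus R108K (vertical axis), 1 dot per list, labelled where a median is large. Neuronal lists lie at the upper left, with the neuron list at -1.45 and 1.02, and the collagen list at the upper right, at 0.80 and 0.75.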

How the data were processed

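The unit of the deposited values was read from the numbers. The tables are named RPM, but their totals were 9.31 to 12.04 times that of RPM. Divided by 1 constant per library, 99.996% or more of each library's values were whole read numbers to within 0.05. The authors' deposited signal is thus a read count divided by a size factor; it was divided by 10.2638 and is called RPM. Per the submitters' processing notes, FastQC, STAR 2.5.0a, DESeq2 1.20.0 and mm10 were used, with no roles given. Recovered reads numbered 2784129 to 24475215 per library, and 3274 of 24421 listed genes had none.

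A gene was tested if 3 or more libraries had 1 RPM or more (15824 genes). Values were log2(RPM + 1), fitted with limma 3.58.1 in R 4.3.3 as 9 group means over 30 libraries (eBayes with trend and robust, two-sided, Benjamini-Hochberg within a comparison, threshold 0.05). The fit was run on simulated counts drawn separately for each gene. These hold no shifts shared by many genes, so the fit was not tested under such shifts. The labels do not say that libraries come from separate litters or days. The limma p-values measure the spread between libraries within a group, pooled over all 9 groups. Alternatives were another pseudocount (0.1 RPM), other filters (none, 5 RPM), TMM, library weights, the groups alone, terms for library numbers, the neuron list as covariate, edgeR 4.0.16 and DESeq2 1.42.0 on recovered reads, and libraries left out; averaging A289V libraries 1 and 3 was chosen after seeing the data. Members and the 43 lists were chosen with earlier results of these data known. Named were Egfr, Neu4, the 8 smallest p of each direction with a mean of at least 5 RPM, up to 4 members per list in the direction of its median and 2 in the other, and the 5 smallest p of each direction in the difference of differences; not all are described, and the values of some are not reported here. Xist, Tsix, Y-linked genes and predicted loci were left unnamed. Positions and the Egfr codon are from GENCODE M21. The permutation test used scipy 1.17.1.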

Additional observations from a re-analysis of the deposited data

Results flagged for a closer look

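In 10 of 232 tests, 1 library of a group stood farther from the nearest of the others than Dixon's 95% limit allows for log2(RPM + 1); chance gives about 1 in 20. Zadh2 was at 104 RPM in A289I library 1, against 60.3 to 64.6 RPM in the other A289I libraries. B3gnt9 was at 20.5 RPM in A289I library 3, against 14.8 to 16.1 RPM in the other A289I libraries. Fosl1 was at 2.19 RPM in A289I library 5, against 0.228 to 0.536 RPM in the other A289I libraries. Tns3 was at 500.1 RPM in A289V library 3, against 190.3 to 211 RPM in the other A289V libraries. Tcf7l2 was at 29.3 RPM in A289I library 1, against 15 to 17.1 RPM in the other A289I libraries. Cd44 was at 76.7 RPM in A289I library 4, against 107 to 122 RPM in the other A289I libraries. S100b was at 130.4 RPM in A289I library 1, against 273 to 327 RPM in the other A289I libraries. Map2 was at 164 RPM in A289I library 3, against 318 to 394 RPM in the other A289I libraries. Bst2 was at 150.2 RPM in A289I library 3, against 282 to 333 RPM in the other A289I libraries. Nkg7 was at 17.1 RPM in A289I library 2, against 2.65 to 4.58 RPM in the other A289I libraries. The difference between A289I and A289V differed from that between R108G and R108K past an adjusted p of 0.05 (limma) for 5 genes: on the log2 scale by -1.69 for 5830417I10Rik (adjusted p = 0.0383), -3.36 for Ak5 (adjusted p = 0.0358), -3.16 for Atp2b4 (adjusted p = 0.0358), -2.41 for Ccdc108 (adjusted p = 0.0454), -2.64 for Rxfp3 (adjusted p = 0.0454). A289I and R108G libraries carry numbers above 37 and A289V and R108K libraries lower ones, so the split at 37 runs alike in both pairs. The lower ranges are mixed differently in A289V and R108K. With 3 number ranges as a term 1 gene passed.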

How the results depend on the processing

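The count of genes past the threshold between A289I and A289V was 0 and became 7 with no filter, 3241 with library weights, 1 with only the groups compared, 4 with 2 number ranges as a term, 3 with 3 number ranges as a term and 196 with DESeq2; leaving out each library in turn gave 0 to 534, the highest without A289I library 4. The 2872 genes at an unadjusted p under 0.05 became 5559 with library weights, 637 with 2 number ranges as a term, 565 with 3 number ranges as a term, 328 with the neuron covariate and 335 with A289V libraries 1 and 2 left out, and 1455 to 3373 with single libraries left out, the lowest without A289V library 2. The 5 genes past the threshold in the difference of differences became 3 with a pseudocount of 0.1 RPM, 3 with a filter of 5 RPM, 1774 with library weights, 0 with only the groups compared, 2 with 2 number ranges as a term, 1 with 3 number ranges as a term, 2 with edgeR and 988 with DESeq2, and 0 to 848 with single libraries left out. The cause of these moves was not tested. Egfr stayed higher in A289I tumours in all 22 alternatives (0.81 to 1.82; adjusted p of at least 0.149 in each) and passed in none. For the other genes named, 21 of 2566 values under alternatives changed sign: with 2 ranges Myc -0.24, Cldn11 -0.09, Olig2 -0.33, Sesn2 -0.57, H2-Q4 -0.06, Psmb8 -0.67, Gbp3 -0.05, H2-Ab1 -1.27, Cd74 -1.27, Egr3 0.96 and Cdc20 -0.31; with 3 ranges S100b 0.56, Sesn2 -0.83, Psmb8 -0.36, Gbp3 -0.52, H2-Ab1 -1.10, Cd74 -0.91, Egr3 0.83 and Hmgcs1 0.13; and with the neuron covariate Ermn 0.30 and Slc1a2 0.27. Of those values 2306 kept direction and side of the threshold, 173 came to pass it and 66, all from the difference of differences, no longer passed. The neuron covariate was not fitted to the difference of differences. For A289I minus A289V, the adjustment for numbers above 37 in the fits with number ranges depends on 1 mCherry library. No paired analysis was possible because the groups share no replicate numbers in the labels. Depth limits the low genes: 1 read was 0.0387 to 0.228 RPM in the A289I libraries and 0.059 to 0.197 RPM in the A289V libraries, so levels under 1 RPM rest on few reads.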
